A study of Mus musculus with 6 samples.

Results

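The genes described here are 89 of the 23337 gene symbols in a table of normalized read values from 6 libraries of sorted midbrain neurons. They were chosen by 2 conditions on these same values: at least 100 in Sox6+ library 825, and more than 20 times the largest value in any of the other 5 libraries. The values that chose the genes are therefore given as a description, with no test. Of the 89 genes, 21 were on a list of macrophage markers, among them the lysozyme gene Lyz2, the chitinase-like gene Chi3l3 (now Chil3) and the protease gene Ctss. A further 5 were on lists of lymphocyte markers. Every gene of a list of 10 alveolar macrophage markers had its highest value in Sox6+ library 825. Of all 13175 tested genes, 25.0% did. Of the 10 markers, 5 met both conditions, among them 1 of the 3 that define these cells. Those 5 are highest in that library by choice, so the share of all tested genes is given for scale only. The genes that define microglia, the macrophages of the brain itself, were not in the set. Of these 4, 2 were at 0 in that library. P2ry12 had 26.2 there against 0 to 31.4 elsewhere, and Sall1 had 50.1 against 0 to 4.9. Of 14 microglia markers, 5 had their highest value in Sox6+ library 825. The marker lists were chosen with earlier results of these data known.

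All 6 libraries came from adult C57BL/6 mice carrying the 3 alleles Sox6-FSF-Cre, Th-2A-Flpo and RC-Frepe, so both groups share 1 genotype. Flp recombinase made under the Th gene, which encodes tyrosine hydroxylase, turns on mCherry and releases the Cre made under Sox6, and Cre then turns the reporter to GFP. Neurons of the substantia nigra pars compacta were dissociated with papain and sorted as GFP+ (Sox6+) or mCherry+ (Sox6-) cells, with 3 libraries of each, numbered 103, 825 and 1211, made from polyadenylated RNA. The labels do not say whether the libraries of a group came from separate animals, so p-values measure only the spread between these samples. In bulk RNA, fewer cells of a type and less RNA per cell cannot be told apart.

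Macrophages are phagocytes that take up particles through Fc, lectin and scavenger receptors, kill microbes with the NADPH oxidase and digest cargo with lysosomal proteases. They share the transcription factor PU.1 and the signalling adaptors DAP12 and FcRγ, while the tissue they live in sets much of the rest of their expression. Microglia in the brain parenchyma, border-associated macrophages in the meninges and alveolar macrophages in the lung airspaces are known by different markers.

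The libraries held 10397924 to 12952768 reads, the fewest in Sox6+ library 825, and 13429 to 15043 genes with a read, again fewest in Sox6+ library 825. The neurons' own genes were high in this library: Th had a value of 63184.0 there and 14823.2 to 51430.7 in the other 5, and the dopamine transporter gene Slc6a3 had 56609.2 there and 5720.4 to 42438.8 elsewhere. The 12 dopaminergic neuron genes summed to 206307 against 39103 to 178924. This library thus held both the dopaminergic transcripts of its label and the 89 genes.

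The summed normalized value of the 89 genes was 77007.8 in Sox6+ library 825. In the other Sox6+ libraries the sum was 87.8 (103) and 132.1 (1211), and in the Sox6- libraries it was 166.9 (103), 122.9 (825) and 194.8 (1211). The sum of the Sox6- library that carries the same number, 825, was within the range of the other 4. Low sums outside Sox6+ library 825 are fixed by the choice of genes. A gene high in both libraries numbered 825 could not enter the set, so nothing is read from this sum. As reads, the 89 genes took 67628 reads, or 0.650% of Sox6+ library 825 (95% exact binomial interval 0.646 to 0.655%, which covers counting error only), and 0.000763% to 0.00177% of the others. Of the 89 genes, 54 had no read in any of the other 5 libraries, 35 had a read in some other library and 4 had one in all 5. Between 17 and 19 of the 89 genes had a read in each of those libraries.

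**Figure D1:**
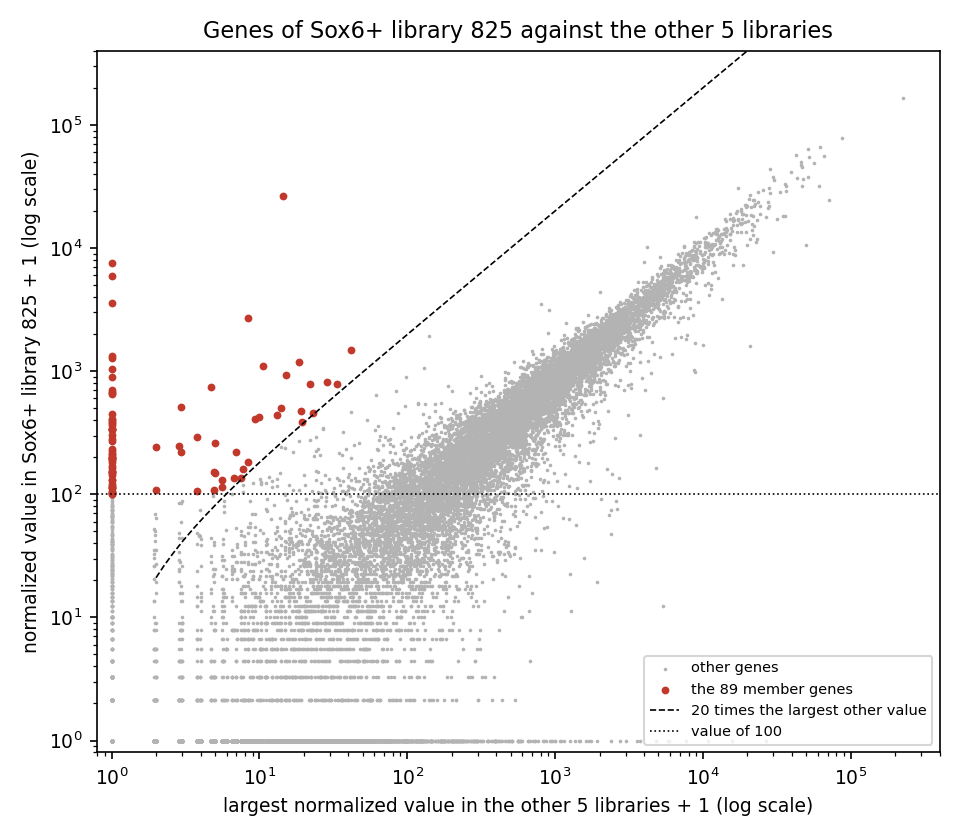
Each point is a gene, with its largest normalized value in the other 5 libraries on the x axis and its value in Sox6+ library 825 on the y axis (both + 1, log scales). The 89 genes in red lie above the dotted line at 100 and above the dashed line at 20 times the largest other value, and 54 of them stand at 0 on the x axis.

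Within the set the values ran from 100.2 to 26494.1 with a median of 243.7. They are not scaled for exon length, so their order is one of reads and not of transcript levels. Lyz2 alone made up 34.4% of the summed value, and the highest 5 genes made up 59.96%. At the other end, 37 genes were under 200, while 11 were at 1000 or more. Just inside the minimum were Arhgap9 and Slamf6 at 100.2, Ptprcap at 102.5 and Fcgr3 at 103.6. Just below it, with the ratio met, were S100a13, Clec4a2 and Cxcl3 at 95.7, Clec4a3 at 94.5 and Tspan32 at 93.4. The ratio was 20.6 for Selplg, 20.9 for Cd68 and Hvcn1, 23.5 for Dpep2 and 23.7 for Gpnmb, the nearest inside it. Nearest outside it were Krt19 at 18.4, Cyp4f18 at 17.6, Clic1 at 17.2, Txnip at 15.4 and Irf5 at 15.3. No gap separated the set from its neighbours: 54 more genes had a value of 50 to 100 and met the ratio, and 23 more with at least 100 were at 10 to 20 times. The same 2 conditions applied to each other library picked 2 genes in Sox6+ library 103 (Wif1 and Epyc), 2 in Sox6+ library 1211 (Tmem212 and Ccdc153), 1 in Sox6- library 103 (Ppef1), none in Sox6- library 825 and 2 in Sox6- library 1211 (Rln3 and Tfap2d). None of these 7 is among the 89.

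Lyz2, a lysosomal enzyme, had the most reads of the set. This gene encodes the lysozyme of macrophages and other myeloid cells, and it had 26494.1 in Sox6+ library 825, 10.9 and 10.2 in Sox6+ libraries 103 and 1211, 13.4 in Sox6- library 103 and 0 in Sox6- libraries 825 and 1211. A single library was high, and every other library of both groups was below 14. In reads that is 23267 against 36 in the other 5 together, a rate ratio of 3692 (95% interval 2666 to 5272, counting error only). Ctss, the cysteine protease cathepsin S that trims the invariant chain of MHC class II, had 3543.6 in that library and 0 in each of the other 5. Against 3 reads over the 5 libraries, about the upper 95% limit for a count of 0, it was at least 5925-fold higher (counting error only). The conditions chose genes with a high ratio, so the Lyz2 and Ctss ratios are a description. Ctsc, cathepsin C, which activates granule serine proteases, had 1109.1, with 9.6 in Sox6- library 103 and 0 elsewhere. The endosomal glycoprotein gene Cd68 had 387.2, with 10.6, 3.0 and 18.5 in Sox6- libraries 103, 825 and 1211 and 0 in the other Sox6+ libraries. Mpeg1, which encodes the pore-forming perforin-2, had 289.2, with 2.8 in Sox6+ library 1211 and 0 in the rest.

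Of the list of 28 lysosomal enzymes, lysozymes and secreted proteases, these 5 met both conditions, and 21 had their highest value in Sox6+ library 825. Of the 13175 genes tested in the study's comparison, 25.0% did. The 5 set genes are highest there by choice, so the share of all tested genes is given for scale only. The lysosomal proteases that neurons also make failed the ratio by a wide margin. Ctsb had 21711.5 in Sox6+ library 825 and 14733.7 to 19530.0 elsewhere, and Ctsd had 7627.0 against 3261.4 to 4025.4.

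Lyz2 lies beside a near copy, Lyz1, and the reading frames of the pair have the same length, 447 bases, and are 95.1% identical, with 22 differing positions. Because a gene's reads can be split with such a copy, positions 61 to 120 of the frames are shown, from the GENCODE M21 transcripts, with the differing bases in capitals. Lyz2 is at chr10:117277331-117282321 on the minus strand and Lyz1 at chr10:117287797-117292868 on the minus strand (GRCm38).
Lyz2: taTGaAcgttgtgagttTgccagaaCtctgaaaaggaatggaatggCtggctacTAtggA
Lyz1: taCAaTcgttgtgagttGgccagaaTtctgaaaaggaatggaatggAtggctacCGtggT
The stretch holds 9 of the 22 differing positions. Lyz1 had 8 reads in Sox6+ library 825, a value of 9.1, and none elsewhere, against 23267 reads for Lyz2. Of the 50-base words of the Lyz2 transcripts, 15.4% also occur in Lyz1. The corresponding share was 16.9% for Chi3l3 and its neighbour Chi3l4, which had a value of 4.6.

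Chemokine and cytokine genes were few in the set. Ccl6, a CC chemokine made by myeloid cells, had 5939.4 in Sox6+ library 825 and 0 in the other 5, at least 9931-fold higher against the same 3 reads. Its neighbour on chromosome 11, the CC chemokine gene Ccl9, had 932.6, with 2.0 and 3.7 in Sox6+ libraries 103 and 1211, 14.1 in Sox6- library 825 and 0 in the remaining pair. Of the other 5 libraries, only Sox6- library 825 had a Ccl9 value above 4. Il1rn, which encodes the secreted antagonist of the interleukin-1 receptor, had 362.1 and 0 elsewhere. These were the 3 of 41 listed chemokine, cytokine and receptor genes in the set, and 21 of the 41 were at 0 in Sox6+ library 825. Il18, which failed the ratio, had 760.6 there and 103.9 to 188.4 in the other libraries.

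The adaptors and enzymes that carry signals from immune receptors followed. Fcer1g, the FcRγ chain, had 1277.6 in Sox6+ library 825 and 0 in each other library. Tyrobp, which encodes DAP12, had 1035.1 and 0 elsewhere. The lysosomal membrane protein gene Laptm5 had 667.3 and Ptprc, the phosphatase CD45 carried by all white blood cells, had 335.9, both with 0 elsewhere. All 4 had no read in 5 libraries and at least 295 reads in the sixth. Rac2, a blood cell GTPase, had 258.5, with 3.0 in Sox6+ library 103, 4.0 in Sox6- library 825 and 0 in the rest. Myo1f, an unconventional myosin of leukocytes, had 108.2, with 3.9 in Sox6+ library 103 and 0 elsewhere. On the list of 34 adaptors and kinases, 6 were in the set and 31 were highest in Sox6+ library 825. Of the others, Ptpn6 (292.6 against 0 to 23.2) and Lcp1 (641.1 against 5.8 to 60.1) failed the ratio. Beside Fcer1g, 1 more of 9 Fc receptor genes was in the set, Fcgr3, with 103.6 and 0 elsewhere. The inhibitory receptor gene Fcgr2b had 82.0 and 0 elsewhere, under the minimum, and the high-affinity receptor gene Fcgr1 was at 0 in Sox6+ library 825.

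Sfpi1 (now Spi1), which encodes PU.1, the transcription factor that specifies macrophages and B cells, had 299.5 in Sox6+ library 825 and 0 in the other 5. It was the 1 gene of 25 growth factor receptors and lineage transcription factors in the set. Cebpb had 683.2 against 125.9 to 199.3, Csf2rb, the shared chain of the GM-CSF receptor, had 142.3 against 1.0 to 19.1, and Tfec had 121.8 against 0 to 10.2, and all 3 failed the ratio. PU.1 binds a purine-rich core, and the letters GAGGAAGT were searched on both strands in RefSeq promoters, from 250 bases before to 50 after each start (GRCm38.p6). Only 64 of the 89 genes, 71.9%, had a promoter there, so a comparison of shares is void and none is made. The letters were found for 7 of the 64 genes, 3 of them near copies of each other. Of the other motifs searched on both strands, TATAAA was found for 12 of the 64 genes, TGACTCA (AP-1) for 8, the IRF element for 4, TCACGTG (MITF/TFE) for 1 and TTGCGCAA (C/EBP) for 0. Counted per gene over 10467 tested genes with a promoter, the shares were 3.14% for GAGGAAGT, 8.98% for TATAAA and 4.24% for TGACTCA. They were 3.43% for the IRF element, 6.93% for TCACGTG and 0.334% for TTGCGCAA. These shares are given for scale and are not compared with the set. Stretches upstream of the start that hold GAGGAAGT on either strand are shown to let the copies be compared, with the match in capitals.
Ctsc, plus strand, chr7:88277914-88277993: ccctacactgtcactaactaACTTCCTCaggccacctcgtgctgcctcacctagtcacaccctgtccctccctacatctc
Lilrb3 (now Pirb), minus strand, chr7:3720443-3720522: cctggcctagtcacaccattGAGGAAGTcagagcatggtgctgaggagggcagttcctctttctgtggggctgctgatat
Bcl2a1b, plus strand, chr9:89199105-89199184: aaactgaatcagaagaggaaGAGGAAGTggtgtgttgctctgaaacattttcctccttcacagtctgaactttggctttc
Bcl2a1a, plus strand, chr9:88956796-88956875: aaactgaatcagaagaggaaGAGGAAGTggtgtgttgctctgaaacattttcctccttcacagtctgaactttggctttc
Bcl2a1d, minus strand, chr9:88731915-88731974: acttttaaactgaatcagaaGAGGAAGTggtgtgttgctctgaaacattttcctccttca
A match to these letters is a description and not a bound site. The 3 Bcl2a1 stretches belong to near copies, so they are not independent cases.

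The Bcl2a1 genes encode relatives of BCL2 that protect blood cells from apoptosis. Bcl2a1b had 335.9, Bcl2a1d had 190.2 and Bcl2a1a had 150.3 in Sox6+ library 825, and all 3 were at 0 in every other library. Their reading frames have 519 bases with 12 differing positions, and the first 60 bases are shown with those that differ in capitals. The genes are at chr9:89199209-89207827 (plus strand), chr9:88956900-88962419 (plus strand) and chr9:88723285-88731914 (minus strand), in the order shown.
Bcl2a1b: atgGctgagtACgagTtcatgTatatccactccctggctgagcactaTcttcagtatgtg
Bcl2a1a: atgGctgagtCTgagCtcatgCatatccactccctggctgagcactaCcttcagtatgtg
Bcl2a1d: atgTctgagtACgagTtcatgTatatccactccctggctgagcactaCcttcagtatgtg
Between 41.1% and 67.7% of the 50-base words of one copy occur in another, so the split of reads among the 3 copies is uncertain.

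The phagocyte NADPH oxidase, which makes superoxide in the phagosome, was represented by 4 of its 7 listed genes. Cybb, the catalytic subunit gp91phox, had 1316.3, and Cyba, its membrane partner p22phox, had 652.5, both with 0 in the other 5 libraries. Rac2, which switches the complex on, is given above, and Hvcn1, the proton channel that balances its charge, had 135.5, with 5.8, 3.0 and 6.5 in Sox6- libraries 103, 825 and 1211 and 0 in the other Sox6+ libraries. Of the cytosolic subunit genes outside the set, Ncf1 had 215.2 against 0 to 33.4 and Ncf4 had 18.2 and 0 elsewhere. All 7 genes had their highest value in Sox6+ library 825, where they summed to 2721.5 against 4.93 to 49.2.

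Among 37 pattern recognition and scavenger receptors, 6 were in the set. Clec4n (dectin-2), a lectin for fungal mannans, had 887.0 and 0 elsewhere. Clec7a (dectin-1), the receptor for fungal glucans, had 411.1, with 8.3 in Sox6+ library 1211 and 0 in the other 4. Marco, a scavenger receptor for bacteria and particles, had 277.8 and 0 elsewhere. Only Clec7a of these had a read in another library. Tlr2, the receptor for bacterial lipopeptides, had 242.5, with 1.0 in Sox6+ library 103 and 0 elsewhere, and Olr1, a receptor for oxidized lipoprotein, had 120.7 and 0 elsewhere. The mannose receptor gene Mrc1, at 322.3, failed the ratio because Sox6+ library 103 had 35.5.

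MHC class II genes present peptides to CD4+ T cells and are made by B cells, dendritic cells and macrophages. Cd74, the invariant chain, had 2694.2 in Sox6+ library 825, 3.7 in Sox6+ library 1211, 3.0 and 7.4 in Sox6- libraries 825 and 1211, and 0 in both libraries 103. H2-Ab1 had 673.0 and 0 elsewhere, and H2-Aa had 514.7, with 2.0 in Sox6+ library 103 and 0 elsewhere. H2-Eb1 had 437.3, with 7.9 and 6.5 in Sox6+ libraries 103 and 1211 and 11.5, 12.1 and 0.927 in Sox6- libraries 103, 825 and 1211. The 3 H2 genes were thus at most 12.1 outside Sox6+ library 825. These are the 4 of 21 antigen presentation genes in the set. Class I genes were expressed in all libraries and failed the ratio, with B2m at 3151.9 against 487.3 to 913.9 and H2-K1 at 552.3 against 37.4 to 116.9.

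Receptors and adhesion proteins of the white blood cell surface made up much of the remainder. Itgb2, the β2 integrin chain shared by leukocyte integrins, had 333.6 and 0 elsewhere, and its partner chain Itgax (CD11c) had 199.3 and 0 elsewhere. The partner Itgam (CD11b) was at 0 in all 6 libraries. Cd52 had 400.8 and Cd48 had 224.3, both surface glycoproteins of leukocytes and both at 0 elsewhere. Selplg, the selectin ligand PSGL-1, had 455.5, with 0.987 in Sox6+ library 103 and 12.5, 22.2 and 3.71 in Sox6- libraries 103, 825 and 1211. With these, 5 of 23 integrin and adhesion genes were in the set. Of 30 inhibitory and paired receptors, 4 were: Lilrb4 had 335.9, Lilra5 149.2 and Lilrb3 111.6, all at 0 elsewhere, and Pilra had 243.7 with at most 1.8 elsewhere. Lilrb4 shares 26.1% of its 50-base words with Gp49a, which had a value of 66.0, so the split between them is uncertain. Fpr1, the receptor for bacterial formyl peptides, had 220.9 with at most 2.0 elsewhere, and Ms4a8a, a tetraspan membrane protein, had 209.5 and 0 elsewhere. No gene of the complement list (12 genes), the eicosanoid list (17), the classical activation list (14) or the cell division list (16) was in the set.

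**Figure D2:**
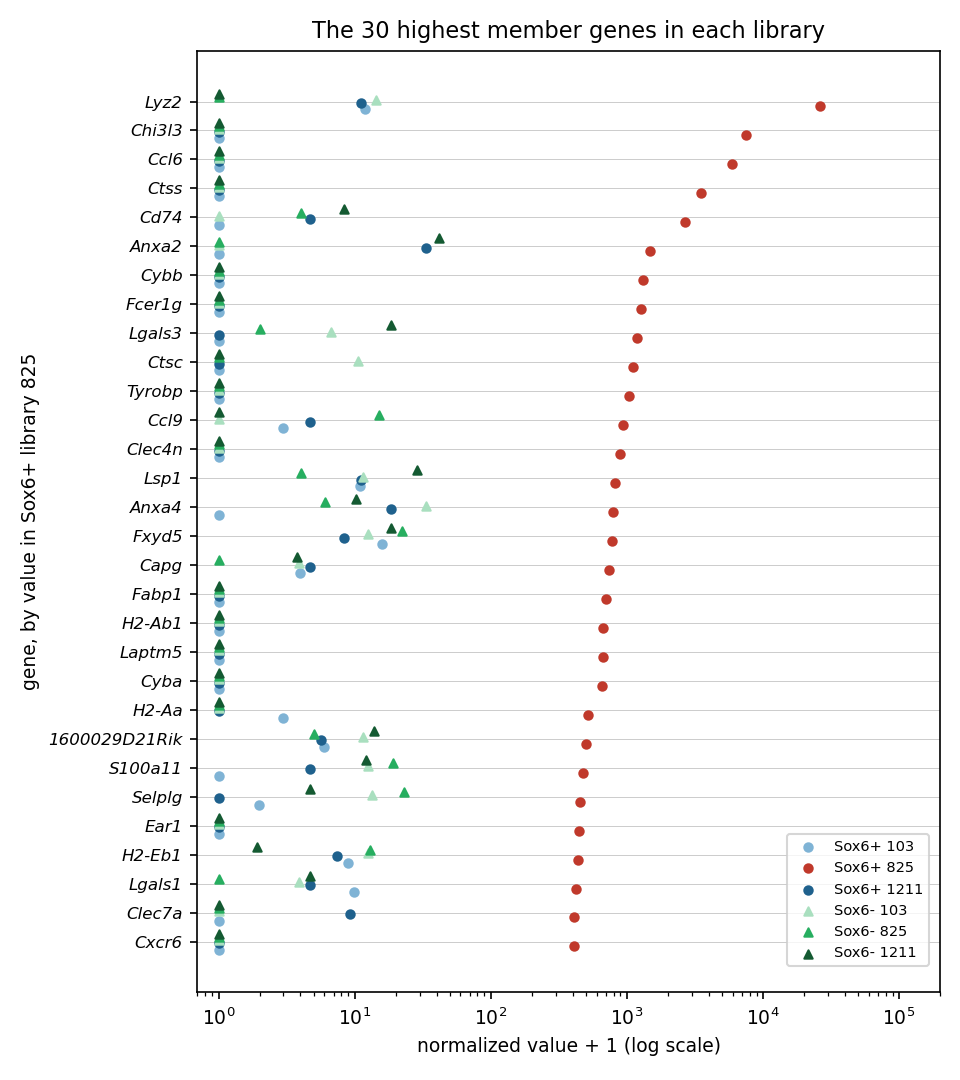
Normalized values + 1 (log scale) of the 30 highest genes of the set in each of the 6 libraries, circles for Sox6+ and triangles for Sox6-, ordered by the value in Sox6+ library 825 (red). Values that chose the genes are shown, so the distance between red and the other colours, and the low values of the other 5 libraries, are fixed by the choice.

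Several lists of tissue macrophages were set beside the set. These lists were chosen with earlier results of these data known, so their counts are a description. On the list of alveolar macrophage markers, 5 of 10 genes were in the set. Chi3l3, a chitinase-like lectin secreted by macrophages, had 7505.2 in Sox6+ library 825 and 0 in the other 5, at least 12549-fold higher against 3 reads. The liver-type fatty acid binding protein gene Fabp1 had 700.3, the eosinophil-associated ribonuclease gene Ear1 had 444.1, Marco had 277.8 and the keratin gene Krt79 had 199.3, and each of these 4 was at 0 in the other 5 libraries. The other 5 markers were also highest in Sox6+ library 825 but failed a condition. Siglec5 (Siglec-F), a sialic acid receptor used to define these cells, had 86.5, with 7.7 in Sox6- library 103 and 0 elsewhere. Ear2 had 79.7 and Cidec, a lipid droplet protein, had 80.8, both at 0 elsewhere. Pparg, the nuclear receptor required for alveolar macrophage identity, had 123.0 against 0 to 24.9, and Car4, a carbonic anhydrase, had 294.9 against 0 to 151.2. Ear1 and Ear2 share 23.8% of their 50-base words, so their split is uncertain. The list summed to 9791.7 in Sox6+ library 825, most of it Chi3l3, which is also on the monocyte list, and to 18.1 to 151.2 in the others.

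The general list of 20 macrophage and monocyte genes had 11 in the set, namely Lyz2, Ctss, Cybb, Fcer1g, Tyrobp, Laptm5, Cd68, Ptprc, Itgb2, Sfpi1 and Mpeg1, and 16 were highest in Sox6+ library 825. Not all defining genes were high. Csf1r, the receptor on which most macrophages depend, had 58.1 and 0 elsewhere, under the minimum, and Emr1, which encodes F4/80, had 134.4 against 0 to 32.5, failing the ratio. Cd53 had 468.0 against 2.8 to 40.4 and failed the ratio, Cd14 and Mertk had 68.3 and 17.1, and Fcgr1, Itgam and Aif1 were at 0 in Sox6+ library 825. The list summed to 36725.3 there and to 16.6 to 84.4 in the other libraries.

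Microglial genes did not follow this. Of 14 markers 1 was in the set, Selplg, and of the 4 defining genes Tmem119 and Siglech were at 0 in Sox6+ library 825, P2ry12 had 26.2 against 0 to 31.4 and Sall1 had 50.1 against 0 to 4.9. The list summed to 2888.9 against 927.7 to 2350.9. For border-associated macrophages 1 of 14 was in the set, Clec4n, while the defining genes Cd163, Lyve1 and Pf4 were at 0 and the fourth, Mrc1, is given above. Their list summed to 1294.7 against 0 to 64.1.

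The remaining macrophage and blood cell lists held few of the genes. On the monocyte list, 1 of 14 was in the set, Chi3l3, which is also on the alveolar list, while the defining genes Ly6c2 and Plac8 were at 0 and Ccr2 had 20.5. That list summed to 7939.0 against 85.6 to 224.9, nearly all of it Chi3l3, and 10 of its 14 genes were highest in Sox6+ library 825. The neutrophil list had 0 of 13, with its defining genes S100a8, S100a9 and Retnlg at 0. No gene of the Kupffer cell and red pulp list was in the set, with Clec4f, Vsig4, Cd5l and Spic at 0, and none of the peritoneal list, with Gata6 at 0. From the list of lipid-laden and cultured macrophages, Gpnmb had 159.4, with 6.7 in Sox6- library 103, and Lgals3, a galactoside-binding lectin, had 1191.1, with 5.8, 1.0 and 17.6 in Sox6- libraries 103, 825 and 1211. With these 2, which are so by choice, 11 of its 15 genes were highest in Sox6+ library 825. Of its other defining genes, Spp1 had 669.6 against 0 to 356.7 and Mmp12 had 3.4 against 0 to 9.1. From the osteoclast list, Atp6v0d2, a proton pump subunit, had 381.5 and 0 elsewhere, while Calcr and Ocstamp were at 0, Dcstamp had 5.7 and Acp5 had 206.1 against 0 to 24.7. The dendritic cell list had 2 of 14, Itgax and Ly6d (113.9 and 0 elsewhere), and its defining genes Flt3 and Zbtb46 were not highest in Sox6+ library 825, at 79.7 and 15.9, with Xcr1 and Clec9a at 0. Lists of mast cells, with Cpa3, Mcpt4 and Ms4a2 at 0, and of erythroid cells, with Hba-a1 and Alas2 at 0, had none.

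**Figure D3:**
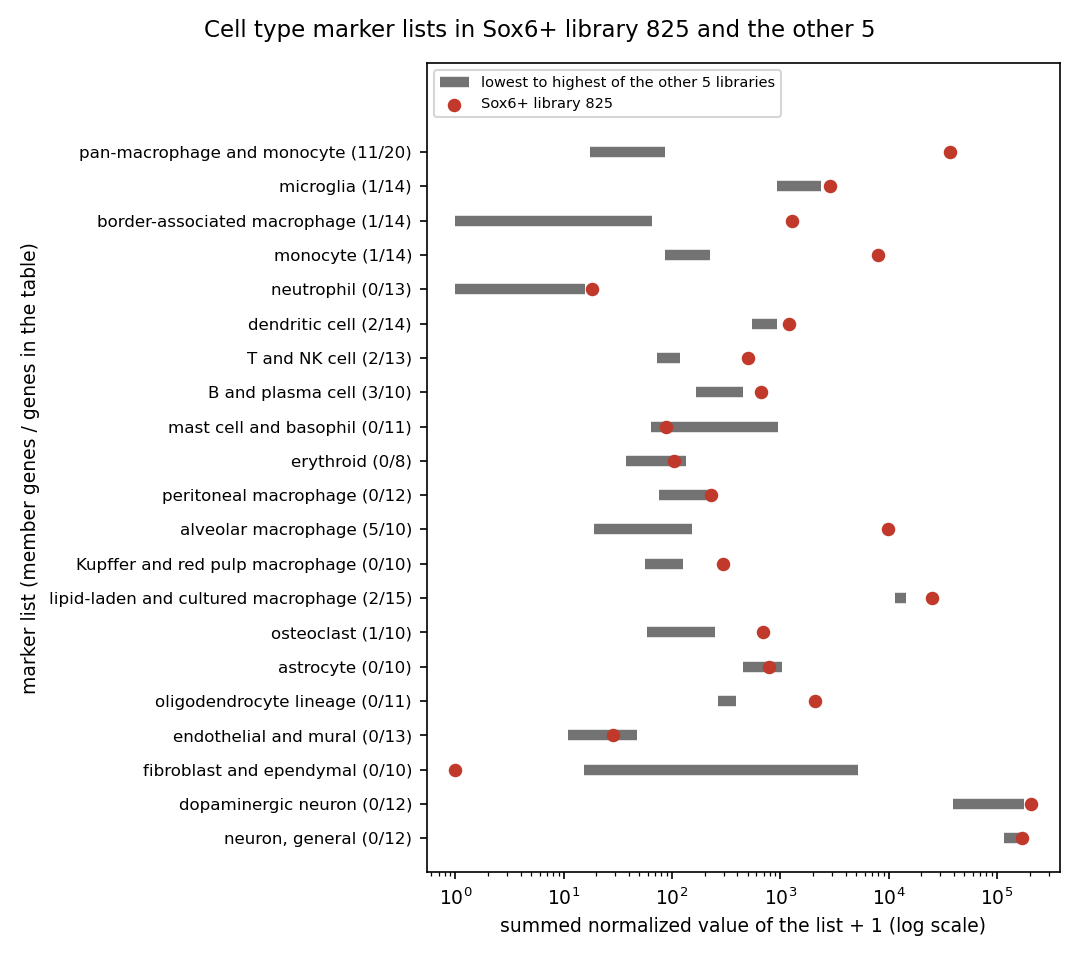
Summed normalized value + 1 (log scale) of each cell type marker list in Sox6+ library 825 (red) and the range over the other 5 libraries (grey bar), with the number of set genes and of listed genes in brackets. The general macrophage list (36725.3 against at most 84.4) and the alveolar macrophage list (9791.7 against at most 151.2) stand far to the right of their bars, and the microglia list (2888.9 against at most 2350.9) lies beside its bar. The lists were chosen with earlier results of these data known.

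Lymphocyte markers were also in the set. For B cells, 3 of 10 markers were in the set. Among them, the signalling chains of the B cell receptor, Cd79a and Cd79b, had 195.9 and 193.6, and both were at 0 in the other 5 libraries. Ms4a1, which encodes CD20, had 42.1 and 0 elsewhere, and Pax5 was at 0 in all 6. For T and NK cells, 2 of 13 were in the set, the CD3 chains Cd3e (111.6 and 0 elsewhere) and Cd3d (107.0, with 1.0 in Sox6- library 825). Cd3g had 62.6, under the minimum, while Cd4, Cd8a and the NK cell gene Ncr1 were at 0 in Sox6+ library 825. Outside the lists, Icos, a T cell costimulator, had 151.4, Cxcr6, a chemokine receptor of T cells, had 409.9 and Slamf6 had 100.2, all at 0 elsewhere. In Sox6+ library 825 none of the listed B and T cell markers reached the value of 200. Of the 10 listed B cell genes, 8 had their highest value there, as did 5 of the 13 T and NK cell genes. The 3 and 2 of these in the set are highest there by choice. The listed B cell gene Ebf1 was lowest there, at 38.7 against 146.9 to 450.9.

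Other cell types of the brain and one other tissue were examined in the same way, and none had a gene in the set. The astrocyte list summed to 784.6 in Sox6+ library 825, inside the range of 450.7 to 1031.3, with Aqp4 and Gja1 at 0. The endothelial and mural list summed to 27.3, inside 10.1 to 46.4, and all 10 fibroblast and ependymal genes were at 0. The oligodendrocyte list was higher, at 2106.6 against 263.9 to 392.3, and this was nearly all Mbp, with 1943.8 against 64.1 to 139.1. Mobp had 99.1 against 0 to 5.5, Mog had 19.4 against 0 to 13.4, and Sox10 was at 0 in every library. A lung epithelium list of 9 genes, added after the set had been seen, summed to 90.0 against 10.1 to 31.7: the surfactant gene Sftpc had 11.4, the club cell genes Scgb1a1 and Cyp2f2 had 13.7 and 8.0, Napsa had 56.9 and the other 5 were at 0. Whether RNA or cells of another tissue entered this library was not tested.

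Of the 89 genes, 37 were on no list. Those with the most reads were Anxa2, a calcium-dependent membrane-binding protein, with 1489.4, 32.3 in Sox6+ library 1211, 40.8 in Sox6- library 1211 and 0 in the rest, and Lsp1, an actin-binding protein of leukocytes, with 818.7 against 3.0 to 27.8. Anxa4 had 789.1 against 0 to 32.6, Fxyd5, a regulator of the sodium pump, had 780.0 against 7.4 to 21.1, and Capg, an actin-capping protein, had 737.9 against 0 to 3.7. Lsp1 and Fxyd5 were read in all 6 libraries, and the 5 genes were at most 40.8 outside Sox6+ library 825. The galectin gene Lgals1 had 423.6 against 0 to 8.9, and S100a11 had 477.1 against 0 to 18.1. Slpi, a secreted inhibitor of leukocyte proteases, had 230.0 and 0 elsewhere. Named after their values were seen, 1600029D21Rik (now Plet1) had 502.2 against 4.0 to 12.98, 1810033B17Rik (now Mcemp1) had 383.7 and 0 elsewhere, and 1100001G20Rik (now Wfdc21) had 211.8 and 0 elsewhere.

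To set genes beside each other, levels were also taken per exon length, as reads per kb of exon scaled to sum to 1000000 in the library. On that scale Lyz2 had 4984.6 in Sox6+ library 825 and ranked 10 among all genes, between Th at 6617.6 (rank 2) and Slc6a3 at 4055.6 (rank 17). Chi3l3 followed at 1138.6 (rank 131), then Ccl6 at 819.3, Ctss at 646.1, Cd74 at 397.3, Tyrobp at 384.2, Fcer1g at 361.9 and Fabp1 at 313.5. Ptprc, whose exons are long, had 4.54. The median exon length was 2196 bases for the set and 4489 for the tested genes.

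**Figure D4:**
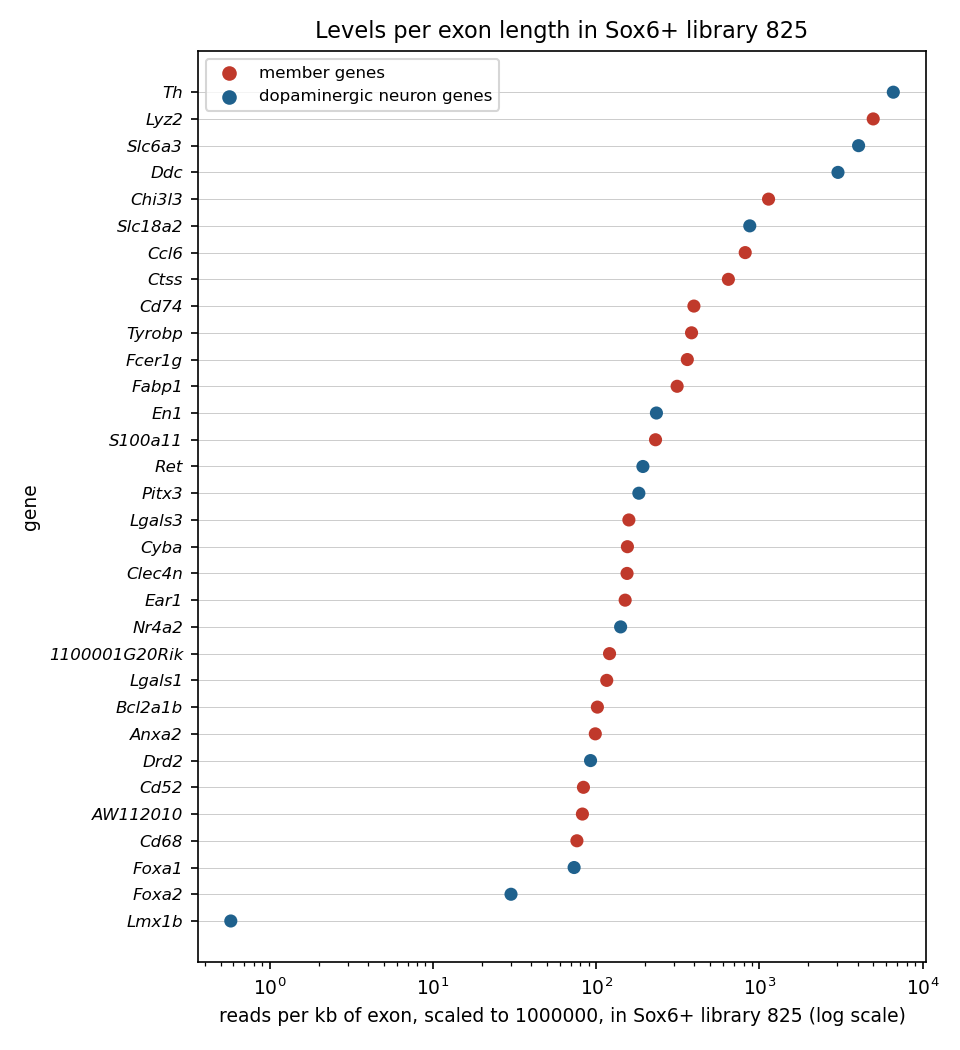
Reads per kb of exon, scaled to sum to 1000000 in Sox6+ library 825 (log scale), for the 20 highest genes of the set (red) and the 12 listed dopaminergic neuron genes (blue). Lyz2 at 4984.6 lies between Th at 6617.6 and Slc6a3 at 4055.6, and the other 19 set genes are at 1138.6 or less.

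By position, 84 protein-coding genes of the set could be placed on GRCm38 and 7 had another set gene as the next protein-coding gene: Ccl6 and Ccl9 (chr11:83587882-83593087 and chr11:83572919-83578636), Cd3d and Cd3e (chr9:44981786-44987339 and chr9:44998740-45009627), and H2-Ab1, H2-Aa and H2-Eb1 (from chr17:34257689-34269419 to chr17:34305867-34316674). These are clusters of related genes.

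The study compared Sox6+ with Sox6- neurons, and the 89 genes entered that comparison through 1 of 3 Sox6+ libraries. With limma on log2(value + 1), 0 of the 89 genes, all of them tested, had an adjusted p under 0.05, where 0.304% of 13175 tested genes did. None of the 89 had an unadjusted limma p under 0.05, where 1500 of the 13175 tested genes did. The adjusted limma p of the 89 ran from 0.507 to 0.987. The library that chose the genes is part of this comparison, so nothing is read from these counts. Lyz2 had a mean of 8838.4 ± 15290.3 (SD, n = 3) in Sox6+ and 4.48 ± 7.75 (SD, n = 3) in Sox6- libraries, a log2 difference of 5.96 (SE 3.20, limma adjusted p 0.531). The SD of the Sox6+ mean was larger than the mean itself. The median log2 difference, Sox6+ minus Sox6-, was 2.56 over the 89 genes and -0.02 over all tested genes. The edgeR test without a block, on the reads recovered from the values, also called 0 of the 89 genes, and called 0.00759% of all tested genes. In that edgeR test, 46 of the 89 and 1361 of the 13175 tested genes had an unadjusted p under 0.05. A blocked edgeR fit, by library number, called 6 of the 89, all higher in Sox6+, and 0.433% of all tested genes. The genes were chosen as high in 1 Sox6+ library, so nothing is read from the edgeR counts or the median difference.

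In the authors' deposited table, 88 of the 89 genes had a log2 fold change but no p-value. DESeq2 by default leaves the p-value blank for a gene with an extreme count in 1 sample. A p-value was missing in the authors' deposited table for 170 genes with a read, and 123 of them had their highest value in Sox6+ library 825. Both numbers include the 88 genes of the set, which are highest there by choice. S100a6, a calcium-binding protein, was the exception: the authors' deposited table gives it a log2 fold change, Sox6- over Sox6+, of -7.78 with an adjusted p of 0.0446, where 2.83% of genes with an adjusted p are under 0.05. Its values were 112.7 in Sox6+ library 825, 4.6 in Sox6+ library 1211 and 0 in the other 4 libraries, so 1 library carried that difference. Leaving Sox6+ library 825 out left 4 of the 89 genes with a mean of at least 10, and limma called none of them.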

How the data were processed

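Polyadenylated RNA of 6 libraries of sorted neurons was sequenced. Per the submitters' processing notes, the tools were STAR, HTSeq, cutadapt, FastQC and DESeq2 and the builds GRCm38 and mm10; no version is given in the sources used here. Their deposited table has a normalized signal for every gene and library, and the results of the authors' DESeq2 test: a log2 fold change, its standard error, the test statistic as a score, a p-value and an adjusted p-value. The step of each library, which is what 1 read is worth, was found from the deposited signal, and 100.0% of values were whole numbers of steps within 0.01. This gave the recovered reads.

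Groups were taken from the sample titles. The values are not raw counts, so genes with a mean of at least 10 (13175 genes) were tested with limma 3.58.1 in R 4.3.3 (2-sided, trend and robust moderation) on log2(value + 1), with Benjamini-Hochberg adjustment at 0.05. A log2 difference on that scale understates the change of low genes. edgeR 4.0.16 (quasi-likelihood) and DESeq2 1.42.0 were run on the recovered reads as alternatives, and the limma and edgeR fits were tested on simulated data. The other alternatives were pseudocounts, filters, normalizations, array weights, a replicate block, leaving out each library, and other thresholds for choosing the genes.

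The set and the gene lists were chosen with earlier results of these data known, and only the lung epithelium list was added after the set had been seen. Of 567 listed symbols 558 were found, under current or older names. The genes named were the 20 highest by value and by value per length, up to 8 set genes of each list, the defining genes of each marker list, the 5 nearest genes on each side of each threshold, and up to 5 genes with at least 100 that failed per role list; not all of these are printed, and some genes are not reported here. Positions, exon lengths and transcripts came from GENCODE M21 (87 of the 89 genes matched) and promoters from RefSeq GRCm38.p6. Protein sequences were not analysed here. Intervals on shares and ratios are exact and cover counting error only, since reads without molecular identifiers are not independent molecules.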

Additional observations from a re-analysis of the deposited data

How the results depend on the processing

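The size of the set followed its thresholds: it was 143 genes at a minimum of 50 and 52 at a minimum of 200, 112 at more than 10 times and 67 at more than 50 times, 72 on recovered reads and 86 on reads scaled by library total (ratio only), and 92 to 97 when 1 of the other libraries was left out. Its share of Sox6+ library 825 was 0.683% and 0.606%, 0.708% and 0.578%, 0.628% and 0.642% under these settings in the same order, and 0.655% to 0.669% without 1 library. The listed B and T cell markers left the set at a minimum of 200. No gene of the set was called by any alternative of limma run, though only 10 of the 89 were tested with a filter of at least 10 in 3 libraries and 4 without Sox6+ 825, or by DESeq2, which gave only 1 of them an adjusted p and called 2.98% of all genes with one.

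Genes called between Sox6+ and Sox6- numbered 40 in all, 69 with a pseudocount of 8, 21 with no filter, 206 with array weights, 387 with DESeq2 and 1 with edgeR. Leaving out 1 library gave 1 (without Sox6- 1211) to 162 (without Sox6+ 103), with 12 without Sox6+ 1211, 22 without Sox6- 825 and 26 without Sox6+ 825, of which 21 were also called with it. The cause of these differences was not tested.

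The library numbers are shared by both groups but were not taken to pair the samples, since the correlation of deviations from the group means was 0.268 (103) and 0.172 (825) but 0.0789 (1211), under the 0.1 asked of every pair. Each library nevertheless correlated best with its own number: the 6 other pairs ran from -0.236 to 0.0243, a hint from the data and not from the design. With the replicate block limma called 267 genes and 0 of the 89. With the replicate block edgeR called 57 genes (0.433% of tested genes), 6 of them in the set: Ccl6, Ccl9, Chi3l3, Ctss, Cybb and Fcer1g. The library that chose the set is part of this fit, so nothing is read from these 6.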
